A study of Mus musculus with 8 samples.

Results

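Apolipoproteins are the protein components of lipoprotein particles, and the genes described here are Apoa1, Apoa2, Apoa4, Apob, Apoc1, Apoc2, Apoc3, Apoe and Apom together with Mttp, which encodes the lipid transfer protein that loads apolipoprotein B. The members were listed by name, and their probes were found on the array by matching the accession of every non-control probe to a gene symbol. This found 11 probes for 9 of the 10 genes, out of 39429 probes for 32530 genes on the array, counting each accession without a symbol as a gene of its own. Apoc2 had no probe that could be named through the reference tables, and 7 of the 9 genes had signal high enough to be tested. Under siRNA 2 the log2 signal of Apob was lower than in Control by 1.11 ± 0.49 (SE, n = 2 against 3), that of Apom by 0.55 ± 0.29 and that of Mttp by 0.52 ± 0.29. Apoa4 was lower by 1.07 ± 0.47, but near background, with 1 of the 2 siRNA 2 arrays not well above it. Apoc1 was slightly higher in every siRNA array than in any Control array, and the groups overlapped for Apoe. No difference of any of these genes passed the threshold, an adjusted p under 0.05 in limma after Benjamini-Hochberg adjustment over 22423 genes.

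Apolipoprotein B is the non-exchangeable scaffold of the triglyceride-rich particles that liver and intestine secrete, and the product of Mttp transfers lipid onto it in the endoplasmic reticulum while it is being made. The smaller apolipoproteins of the A, C and E groups move between particles in plasma, where they carry high-density lipoprotein, set the activity of lipases or bind receptors. Before the embryo has a liver or a gut, the visceral endoderm, the epithelium that covers the early mouse embryo and the outside of an embryoid body, secretes apolipoprotein B and other serum proteins, and mouse embryos need this for transport of lipid.

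The study transfected R1 cells, a line of mouse embryonic stem cells, with a Control siRNA (n = 3 arrays), with siRNA 1 against CnAb1 (n = 3) or with siRNA 2 against CnAb1 (n = 2), and differentiated the cells in embryoid bodies for 48 hours toward mesoderm. Total RNA was collected 48 hours after transfection and hybridised to Agilent 1-colour arrays. CnAb1 is the name that the labels give the target, known as a splice variant of the calcineurin Aβ subunit encoded by Ppp3cb. All groups share the cell line, the differentiation and transfection with an siRNA, and no untransfected group or rescue was analysed here. The sources used here do not say whether replicates were separate cultures, so the p-values measure only the spread between arrays, which may be technical.

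Ppp3cb, read by a probe not known to cover the splice variant, had log2 signals of 0.75, 0.52 and 0.62 in Control, 0.18, 0.39 and 0.61 under siRNA 1, and 0.42 and 0.62 under siRNA 2. These arrays overlapped, and the differences from Control were -0.24 ± 0.13 (SE) for siRNA 1 and -0.11 ± 0.15 for siRNA 2. Because the probe is not known to cover the variant, the knockdown itself could not be checked from this gene. Pou5f1, 1 of 10 markers of pluripotent cells read below, averaged 4.50, 4.56 and 4.40 in Control, siRNA 1 and siRNA 2. Of the 7 mesoderm and primitive streak markers, T, Eomes, Evx1, Fgf8 and Kdr were well above background on 8 of 8 arrays, Mesp1 on 3 and Mixl1 on 2. Between 68.0% and 75.1% of the non-control spots of an array were well above background and 0 were saturated. The arrays lay on 3 slides. The arrays numbered 1 in each group shared slide 1, Control 2 lay with siRNA 1 replicate 3 on slide 2, and Control 3 with the arrays numbered 2 of both siRNAs on slide 3. Position on the slide and group cannot be told apart, because each group had a position of its own. With the groups in the model, 5.94% of all genes tested differed between slide 1 and the other slides, and 5.26% were lower on slide 1. All signals below are log2 processed intensity relative to the 75th percentile of the same array, and differences are between such values. A probe's level depends on its sequence as well as on the RNA, so levels are compared between arrays and never between probes. In RNA from whole embryoid bodies, fewer cells that express a gene and less RNA per cell cannot be told apart.

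**Figure D1:**
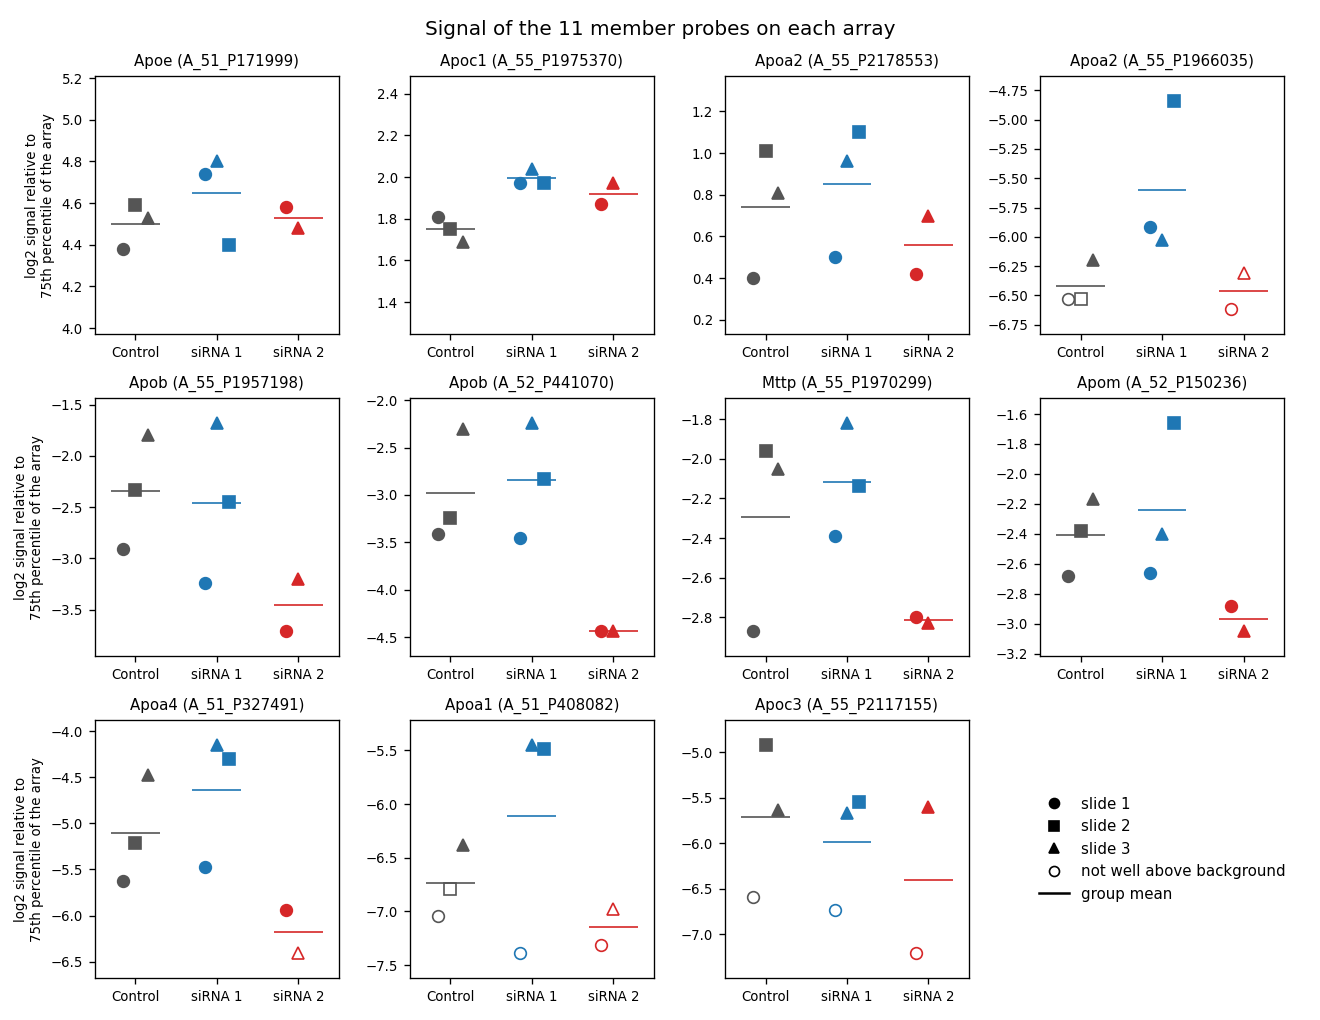
Log2 signal relative to the 75th percentile of the array for the 11 probes of the apolipoprotein and Mttp genes, one panel for each probe with a vertical axis of its own. Colours give the group, shapes the slide, open symbols arrays on which the probe was not well above background, and lines the group means. The siRNA 2 arrays lie below every Control array for both Apob probes, Apoa4 and Apom, and all siRNA arrays lie above every Control array for Apoc1.

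Among the tested members, Apob, Apoa4, Apom and Mttp had the most negative differences between siRNA 2 and Control, and their promoters are shown here, from 250 bases before to 50 bases after the annotated start. The sequences are RefSeq's for GRCm38.p6, written 5′ to 3′ on the strand of the gene. Capitals mark matches, on either strand, to letters searched for as the core of motifs of factors known from liver and endoderm.
Apob, chr12:7977427-7977726, plus strand: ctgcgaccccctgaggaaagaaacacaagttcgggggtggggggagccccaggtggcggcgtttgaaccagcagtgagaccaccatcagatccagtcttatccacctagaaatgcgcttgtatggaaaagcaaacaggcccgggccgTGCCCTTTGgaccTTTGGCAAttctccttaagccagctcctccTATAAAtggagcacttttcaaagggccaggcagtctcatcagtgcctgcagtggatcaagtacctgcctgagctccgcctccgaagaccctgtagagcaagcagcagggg
Apoa4, chr9:46240594-46240893, plus strand: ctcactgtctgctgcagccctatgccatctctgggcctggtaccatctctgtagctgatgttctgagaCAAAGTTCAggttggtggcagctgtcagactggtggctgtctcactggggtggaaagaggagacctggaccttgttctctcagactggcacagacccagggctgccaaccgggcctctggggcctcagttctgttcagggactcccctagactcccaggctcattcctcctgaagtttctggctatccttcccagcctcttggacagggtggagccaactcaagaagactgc
Mttp, chr3:138143369-138143668, minus strand: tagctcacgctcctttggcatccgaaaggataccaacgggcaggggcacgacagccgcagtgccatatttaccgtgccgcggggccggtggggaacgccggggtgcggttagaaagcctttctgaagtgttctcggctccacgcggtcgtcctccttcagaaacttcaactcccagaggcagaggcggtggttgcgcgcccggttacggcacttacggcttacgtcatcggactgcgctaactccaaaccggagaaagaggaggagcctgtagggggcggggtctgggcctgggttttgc
Apom, chr17:35131752-35132051, minus strand: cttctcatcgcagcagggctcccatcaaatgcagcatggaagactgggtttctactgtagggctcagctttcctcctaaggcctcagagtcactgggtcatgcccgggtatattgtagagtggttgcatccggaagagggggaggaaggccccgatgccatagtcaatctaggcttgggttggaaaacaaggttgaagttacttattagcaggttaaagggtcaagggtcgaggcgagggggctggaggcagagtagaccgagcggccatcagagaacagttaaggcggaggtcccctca
The searched letters were CAAAGNNCA for HNF4, GTTAAT for HNF1, AGATAA for GATA factors, TTGCNNAA for C/EBP and TATAAA for the TATA box. The Apob window held the HNF4 letters on the minus strand at position -103 from the start, the C/EBP letters at -90, also on the minus strand, and a TATA box at -60, and these did not overlap. The Apoa4 window held the HNF4 letters at -182 on the plus strand, and the Mttp and Apom windows held none of the searched letters. Of 32851 windows of the same length, 6.36% held the HNF4 letters, 7.1% the HNF1 letters, 11.2% the GATA letters, 10.8% the C/EBP letters and 13.6% a TATA box. A match describes the letters of the window only. Each gene shown had only its listed window searched, so the lack of a match does not cover any other start of the gene. Windows were given for 8 of the 10 genes, and among the other 4 with a window, C/EBP letters and a TATA box occurred in those of Apoa2, HNF1 letters and a TATA box in those of Apoe and HNF1 letters in that of Apoc2.

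Apob, the gene of the scaffold protein, was read by 2 probes. On the probe with the higher signal, A_55_P1957198, the log2 signals were -2.91, -2.33 and -1.80 in Control, -3.24, -1.68 and -2.45 under siRNA 1, and -3.71 and -3.20 under siRNA 2. Both siRNA 2 arrays were below the lowest Control array, whereas the siRNA 1 arrays spread over the Control range and beyond it on either side. The processed intensities behind these values were 123, 168 and 295 in Control and 70.1 and 92.0 under siRNA 2, and the spots were well above background on all 8 arrays. The difference of siRNA 2 from Control was -1.11 ± 0.49 (SE, 95% interval -2.25 to 0.03), or 2.16-fold lower, with limma's unadjusted p = 0.0556 and Benjamini-Hochberg adjusted p = 1. The second probe, A_52_P441070, read -3.41, -3.24 and -2.30 in Control, -3.45, -2.24 and -2.83 under siRNA 1, and -4.44 on each siRNA 2 array. Here the siRNA 2 arrays lay below all 6 others. The difference from Control was -1.46 ± 0.42 (SE, 95% interval -2.44 to -0.48), with unadjusted p = 0.00969 and an adjusted p of 1 over all probes tested in limma. Under siRNA 1 the Apob difference was -0.11 ± 0.43 on the higher probe and 0.14 ± 0.37 on the other, so the probes differ in sign and neither is beyond its error.

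Within groups the Apob signal on slide 1 differed from that on the other slides by -0.87 ± 0.22, which did not pass the threshold (limma, adjusted p = 0.0881 over all genes). Against the Control array of the same slide, siRNA 2 differed by -0.80 on slide 1 and -1.40 on slide 3 on the higher probe, and by -1.03 and -2.14 on the other. These signs were fixed by the order of the arrays given above, and the sizes were larger on slide 3. siRNA 1 differed by -0.33, -0.12 and 0.12 on slides 1, 2 and 3 for the higher probe, and by -0.05, 0.41 and 0.06 for the other, with no shared direction.

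Mttp encodes the large subunit of the microsomal triglyceride transfer protein. Its log2 signals were -2.87, -1.96 and -2.05 in Control, -2.39, -1.82 and -2.14 under siRNA 1, and -2.80 and -2.83 under siRNA 2. The siRNA 2 arrays were below all siRNA 1 arrays, but Control 1 was as low as they were. The difference of siRNA 2 from Control was -0.52 ± 0.29 (SE, 95% interval -1.21 to 0.16, limma unadjusted p = 0.113). On slide 1, where Control 1 lay, siRNA 2 differed from Control by 0.07, and on slide 3 by -0.78. The siRNA 2 array was thus lower than the Control array of its own slide on 1 of 2 slides. siRNA 1 differed from Control by 0.17 ± 0.26, with 0.48, -0.18 and 0.23 on the separate slides.

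The genes of high-density lipoprotein are Apoa1, which encodes its main protein and the activator of cholesterol esterification in plasma, Apoa2, which encodes another structural protein of the particle, and Apom, whose product carries sphingosine 1-phosphate. Apom had log2 signals of -2.68, -2.38 and -2.17 in Control, -2.66, -2.40 and -1.66 under siRNA 1, and -2.88 and -3.05 under siRNA 2. The siRNA 2 arrays were the lowest of the 8, below the Control array of slide 1 by 0.20 and below that of slide 3 by 0.88. The difference from Control was -0.55 ± 0.29 (SE, 95% interval -1.24 to 0.14, limma unadjusted p = 0.1). Under siRNA 1 it was 0.17 ± 0.26, and the highest array, siRNA 1 replicate 3, set that direction, since without it the difference was -0.12.

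Apoa2 was read by a bright and a dim probe. The bright probe, A_55_P2178553, gave 0.40, 1.01 and 0.81 in Control, 0.50, 0.96 and 1.10 under siRNA 1, and 0.42 and 0.70 under siRNA 2. Its pattern followed the slides, the 3 arrays of slide 1 being the lowest of all. The difference of slide 1 from the other slides within groups was -0.46 ± 0.09, the one slide term among the 7 tested genes that passed the threshold (limma, Benjamini-Hochberg adjusted p = 0.0388 over all genes). Against Control, siRNA 1 differed by 0.12 ± 0.21 and siRNA 2 by -0.17 ± 0.24, and on the same slide the siRNA 2 differences were 0.03 and -0.10. The dim probe, A_55_P1966035, was well above background on 1 of 3 Control arrays, on all 3 siRNA 1 arrays and on 0 of 2 siRNA 2 arrays. Its log2 signals under siRNA 1 were -5.92, -6.03 and -4.84, so the mean of that group leaned on replicate 3. This probe entered the test through siRNA 1, the group in which it was higher. Most Control arrays and the siRNA 2 arrays did not measure it, so no size is given for its differences.

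Apoa1 was close to background throughout and was not tested. Its probe was well above background on 1 Control array, 2 siRNA 1 arrays and 0 siRNA 2 arrays, with log2 signals of -7.04, -6.79 and -6.38 in Control, -7.39, -5.45 and -5.49 under siRNA 1, and -7.31 and -6.98 under siRNA 2. The highest values were the siRNA 1 arrays of slides 2 and 3. The lowest value of the 8 was the siRNA 1 array of slide 1, so that the siRNA 1 arrays lay on both sides of the siRNA 2 arrays.

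Apoa4 encodes an apolipoprotein of intestinal particles, and its gene lies beside Apoc3, Apoa1 and Apoa5 in one cluster. Its log2 signals were -5.63, -5.21 and -4.48 in Control, -5.47, -4.15 and -4.30 under siRNA 1, and -5.94 and -6.41 under siRNA 2. The siRNA 2 arrays were the lowest of the 8, and the lower of them was not well above background, so the gene was measured on 1 of 2 arrays of that group. It entered the test through the groups in which it was higher. Processed intensities ran from 9.97 to 47.3 over all arrays, near the low end of the scale. The difference of siRNA 2 from Control was -1.07 ± 0.47 (SE, 95% interval -2.18 to 0.04, limma unadjusted p = 0.0565, adjusted p = 1), and with background correction by normexp and quantile normalization it was -0.22. On the separate slides it was -0.32 and -1.93. The difference of siRNA 2 from siRNA 1 was -1.54 ± 0.47 (SE, 95% interval -2.65 to -0.42, limma unadjusted p = 0.0136, adjusted p = 1), with -0.47 on slide 1 and -2.26 on slide 3.

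The C apolipoproteins act on lipases and on receptor uptake, and Apoc3, whose product inhibits lipoprotein lipase, was near background. Apoc3 read -6.59, -4.92 and -5.63 in Control, -6.73, -5.67 and -5.55 under siRNA 1, and -7.21 and -5.60 under siRNA 2. The arrays of slide 1 were the lowest in each group, and they were the 3 arrays on which the probe was not well above background, so the gene was not tested.

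Apoc1, whose product slows receptor uptake of remnant particles, was the one tested member whose siRNA arrays all lay on one side of the Control arrays, although the difference was small. Its log2 signals were 1.81, 1.75 and 1.69 in Control, 1.97, 2.04 and 1.97 under siRNA 1, and 1.87 and 1.97 under siRNA 2. Every siRNA array was above every Control array, as held for 2.43% of all genes tested. The mean of both siRNAs differed from Control by 0.21 ± 0.07 (SE, 95% interval 0.04 to 0.37), or 1.15-fold. With the 8 arrays split as 5 siRNA and 3 Control, the exact permutation test, two-sided, gave p = 0.0179, the smallest that its 56 splits can give. Those splits ignore the slides. When labels were exchanged between arrays of one slide only, which was done knowing the values, the exact p was 0.0556, the smallest that its 18 placements can give, so this design cannot pass 0.05. In limma the unadjusted p was 0.0198 and the Benjamini-Hochberg adjusted p over all genes was 1. The difference was present with each siRNA, 0.24 ± 0.08 (SE, limma unadjusted p = 0.0149) for siRNA 1 and 0.17 ± 0.09 (limma unadjusted p = 0.0887) for siRNA 2. On the separate slides it was 0.16, 0.22 and 0.35 for siRNA 1 and 0.06 and 0.28 for siRNA 2, differences that share 3 Control arrays and whose sign the order of the arrays fixes. Slide 1 differed from the other slides by -0.01, and the difference of both siRNAs from Control ranged from 0.17 to 0.27 over the alternatives. Processed intensities of 2840 to 3620 lay far above background.

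Apoe, which encodes the receptor ligand of remnant particles and is the neighbour of Apoc1 in the genome, had no such separation. Its log2 signals, each the mean of 10 spots with an SD of 0.04 to 0.06 between spots, were 4.38, 4.59 and 4.53 in Control, 4.74, 4.80 and 4.40 under siRNA 1, and 4.58 and 4.48 under siRNA 2. The groups overlapped, and the siRNA 1 array of slide 2 was the second lowest of the 8. The difference from Control was 0.14 ± 0.13 for siRNA 1 and 0.03 ± 0.14 for siRNA 2 (SE, 95% interval -0.31 to 0.36). On slide 1 siRNA 2 differed by 0.20 and on slide 3 by -0.05.

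**Figure D2:**
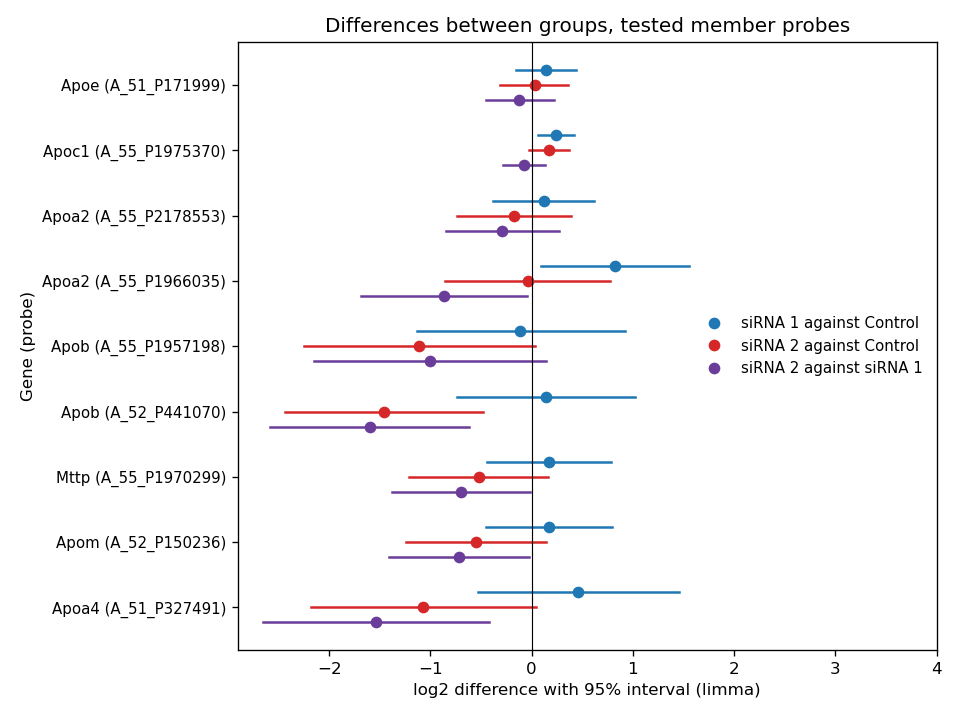
Log2 differences between groups with limma's 95% intervals for the 9 tested probes of the apolipoprotein and Mttp genes, coloured by comparison. The intervals for siRNA 2 lie largely below 0 for Apob, Apoa4, Apom and Mttp, and those for Apoc1 and Apoe are the narrowest. The dim Apoa2 probe entered the test through siRNA 1, the group in which it was higher. It was measured on 1 of 3 Control arrays and 0 of 2 siRNA 2 arrays, so its plotted differences are not read as sizes.

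Taken over the 7 tested members, 0 passed the threshold in any comparison, and over all genes tested the share that passed was 0% as well. On the chosen probes 1 member, Apoc1, was higher at an unadjusted p under 0.05, with siRNA 1 and with the mean of both siRNAs. The shares of all genes that were higher at that p were 2.6% and 2.27%. No member reached that p for siRNA 2 against Control on its chosen probe, where 3.35% of all genes did. In that comparison the siRNA 2 arrays lay below every Control array for Apob, Apoa4 and Apom, 3 of 7 members, against 8.18% of all genes tested. The 2 arrays lay above every Control array for Apoc1, as for 8.75% of all genes. In direction alone 5 of 7 members were lower, with a median difference of -0.52, while 50.2% of all genes were lower and the median over all genes was 0. Since Apoa4 was tested because of its higher groups, the 6 members measured on all 8 arrays are given too, of which 4 were lower with a median of -0.35. Among those 6, the siRNA 2 arrays lay below every Control array for Apob and Apom only. With background correction by normexp and quantile normalization the differences of siRNA 2 from Control were smaller, -0.67 for Apob, -0.33 for Apom and -0.29 for Mttp. These counts describe genes that were listed by name and are not a test of the list.

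Under siRNA 1 the members did not stand lower. Of the 7 tested, 6 were higher and Apob was lower, where 41.8% of all genes were lower. The median difference was 0.17 against 0.02 over all genes. On the chosen probes Apoc1 was the one member whose arrays did not overlap with Control, as held for 5.4% of all genes in the higher direction. The siRNA 1 arrays of the dim Apoa2 probe, near background, also lay above every Control array. The 2 siRNAs are meant for the same target, and their difference was tested directly. All 7 members were lower under siRNA 2 than under siRNA 1, where 57.6% of all genes were, with a median of -0.70 against -0.03 over all genes. Apoa4, Apom and Mttp were lower at an unadjusted p under 0.05, against 2.55% of all genes, with log2 differences of -1.54 ± 0.47, -0.72 ± 0.29 (limma unadjusted p = 0.0423) and -0.70 ± 0.29 (limma unadjusted p = 0.0463), and 0 passed after adjustment. Apoa4 was tested because of its higher groups, and among the 6 members measured on all 8 arrays 6 were lower, 2 of them at that p, with a median of -0.50. For Apoa4, Apom and Mttp the siRNA 2 arrays lay below every siRNA 1 array, against 11.8% of all genes. Apob differed by -1.0 ± 0.49 on its chosen probe (limma unadjusted p = 0.0773), where the groups overlapped, and by -1.60 ± 0.42 (limma unadjusted p = 0.00618, adjusted p = 1) on the other, where they did not. Within slides 1 and 3 siRNA 2 was below siRNA 1 for every tested member on its chosen probe, which the order of the arrays already fixes for Apoa4, Apom and Mttp. The differences on slide 1 and slide 3 were -0.47 and -1.52 for Apob, -0.22 and -0.64 for Apom, and -0.41 and -1.01 for Mttp.

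The mean of both siRNAs against Control joins groups that stood on opposite sides for several members. By that mean 5 of 7 members were lower, with a median of -0.18, and 47.1% of all genes were lower. Outside Apoc1 the differences were -0.61 ± 0.39 for Apob, -0.30 ± 0.38 for Apoa4, -0.19 for Apom, -0.18 for Mttp, 0.09 for Apoe and -0.03 for Apoa2. Exact two-sided permutation p-values over the 56 splits were 0.357 for Apob, 0.839 for Apoa4, 0.786 for Apom, 0.768 for Mttp, 0.429 for Apoe and 1 for Apoa2.

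**Figure D3:**
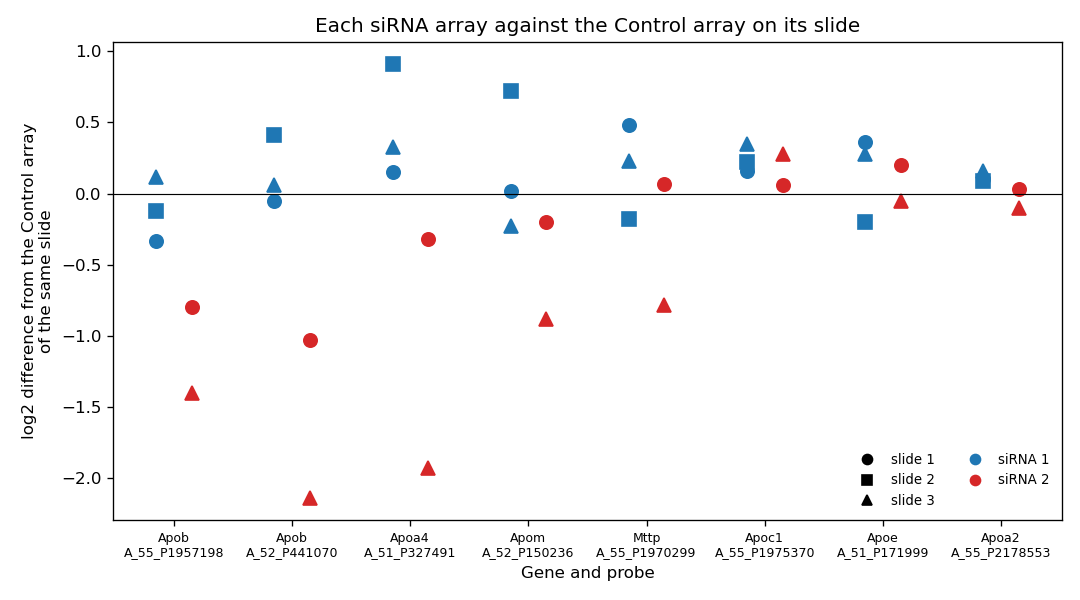
Log2 difference of each siRNA array from the Control array on its own slide for the main probe of 7 genes and the second probe of Apob, with colour for the siRNA and shape for the slide. The siRNA 2 differences are negative on both slides for Apob, Apoa4 and Apom and further from 0 on slide 3.

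Other genes of lipoprotein metabolism were compared in the same way, by lists of genes of a shared role. None of their genes passed the threshold in limma for siRNA 2 against Control, a comparison in which 50.2% of all genes tested were lower. Among 18 other apolipoprotein genes 10 were tested, 5 higher and 5 lower, with a median of 0. The 3 with the smallest p were Apol9a at -0.25 ± 0.16, Saa1, a serum amyloid protein of high-density lipoprotein, at -0.22 ± 0.18, and Apoa5, a regulator of plasma triglyceride, at -0.63 ± 0.83. The Apoa5 difference was 0.43 without siRNA 2 replicate 1, so its sign rests on that array.

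Of 25 genes for assembly and export of particles in the secretory pathway 24 were tested, 15 higher and 9 lower, with a median of 0.03. Genes of this list stood near Control apart from Pla2g12b, whose product is needed for secretion of triglyceride-rich particles by mouse liver, and Soat2, the cholesterol esterifying enzyme of liver and intestine. Pla2g12b had log2 signals of -4.06, -4.12 and -2.81 in Control, -3.97, -3.52 and -3.87 under siRNA 1, and -4.43 and -5.14 under siRNA 2. Its siRNA 2 arrays were the lowest of the 8. Over all genes tested, the siRNA 2 arrays lay below every Control array for 8.18% and below every siRNA 1 array for 11.8%. Genes named by their p in this comparison are favoured for such separation. The difference of Pla2g12b from Control was -1.12 ± 0.42 (SE, limma unadjusted p = 0.0319, adjusted p = 1). The Pla2g12b difference was -0.32 with normexp and quantile normalization, and from -1.47 to -0.69 with an array left out. Soat2 differed by -0.55 ± 0.31, and Sar1b, a GTPase of the vesicles that carry particles out of the endoplasmic reticulum, by -0.12 ± 0.10. Among 12 tested genes of remodelling in plasma, of 16 listed, 9 were higher and 3 lower, with a median of 0.10. The smallest p-values there belonged to Angptl4, a lipase inhibitor, at 0.21 ± 0.11, Abcg5, a sterol transporter, at 0.39 ± 0.24, and Gpihbp1, the anchor of lipoprotein lipase on capillaries, at -0.74 ± 0.45. The Gpihbp1 difference was 0.09 without siRNA 2 replicate 1.

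Of 19 lipoprotein receptor genes 17 were tested, 4 higher and 13 lower, with a median of -0.09, and 2 were lower at an unadjusted p under 0.05, as were 1.97% of all genes. These were Cubn and Amn, which encode the endocytic receptor cubilin and its membrane partner amnionless, a receptor of the visceral endoderm that takes up high-density lipoprotein. Cubn had log2 signals of 1.22, 2.14 and 2.41 in Control, 1.30, 1.83 and 1.37 under siRNA 1, and 0.68 and 0.69 under siRNA 2. Amn had 0.14, 0.68 and 1.13 in Control, 0.22, 0.83 and 0.36 under siRNA 1, and -0.32 and -0.38 under siRNA 2. For both genes, named by their p in this comparison, the siRNA 2 arrays were the lowest of the 8. Over all genes tested, the siRNA 2 arrays lay below every Control array for 8.18% and below every siRNA 1 array for 11.8%. The differences from Control were -1.24 ± 0.34 for Cubn (limma unadjusted p = 0.0082, adjusted p = 1) and -1.0 ± 0.30 for Amn (limma unadjusted p = 0.0114, adjusted p = 1). Lrpap1, the chaperone of this receptor family, differed by -0.36 ± 0.15 (limma unadjusted p = 0.0513).

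Among 26 transcriptional regulators of these genes 21 were tested, 5 higher and 16 lower, with a median of -0.12, and 4 were lower at an unadjusted p under 0.05, against the same 1.97% of all genes. The 3 with the smallest p were the endoderm factors Foxa2, Gata6 and Gata4, at -1.53 ± 0.36, -1.21 ± 0.44 and -0.73 ± 0.28 (limma unadjusted p = 0.00369, 0.0295 and 0.0339, adjusted p = 1 for each). Foxa2 read -1.80, -1.28 and -0.64 in Control, -1.80, -1.07 and -1.86 under siRNA 1, and -2.79 and -2.76 under siRNA 2. The siRNA 2 arrays lay well below the other 6, for a gene named by its p in this comparison. Among all genes tested, 8.18% had the siRNA 2 arrays below every Control array and 11.8% below every siRNA 1 array. The remaining gene of the 4 was Hnf4a, a nuclear receptor known to bind the promoters of Apob and other apolipoprotein genes in liver, named here after its values were seen. Hnf4a read -3.17, -2.35 and -2.02 in Control, -2.84, -1.49 and -2.49 under siRNA 1, and -3.48 and -3.99 under siRNA 2. Its siRNA 2 arrays were again the lowest of the 8, with a difference from Control of -1.22 ± 0.47 (SE, limma unadjusted p = 0.0349, adjusted p = 1), or -0.64 with normexp and quantile normalization.

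Most markers of visceral endoderm stood lower in the siRNA 2 arrays, as Apob, Apoa4 and Apom did. Of 12 markers, listed with earlier results of these data known, 11 were tested. For siRNA 2 against Control 10 of 11 were lower with a median of -1.0, where 50.2% of all genes were lower. Of these markers 0 passed the threshold (smallest adjusted p 0.956 in limma). Of these 11 genes 5, Cubn, Amn, Dab2, Lrp2 and Hnf4a, also belong to the receptor or regulator lists, so the lists are not separate evidence. The exception in direction was Trf, the iron carrier transferrin, at 0.20 ± 0.08 (limma unadjusted p = 0.0417, adjusted p = 1), and Rbp4, the retinol carrier, was at -0.04 ± 0.11. The mean log2 signal of the tested markers lay between -1.31 and -0.88 in Control, between -1.20 and -0.60 under siRNA 1, and at -2.02 and -2.14 under siRNA 2. The siRNA 2 arrays were thus below every other array for this list, while siRNA 1 and Control overlapped. Part of the gap in this mean came from Afp, whose product is alpha-fetoprotein of fetal serum and which was tested because of its higher groups. Afp was well above background on 6 of 8 arrays, and the exceptions were the siRNA 2 arrays, at -7.03 and -7.21. The median deviation of the markers from their Control means was -0.96 and -1.03 on the siRNA 2 arrays. It lay between -0.46 and 0.24 in Control and between -0.29 and 0.19 under siRNA 1. Ttr, the secreted carrier transthyretin, read -1.74, -1.09 and -1.02 in Control, -1.18, 0.59 and -0.58 under siRNA 1, and -2.99 and -3.22 under siRNA 2. All 10 parietal endoderm markers were lower under siRNA 2 with a median of -0.95, and under siRNA 1 with a median of -0.45. Over all genes tested, 50.2% were lower under siRNA 2 and 41.8% under siRNA 1. Their mean log2 signal ranged from -0.19 to 1.07 in Control, from -0.51 to 0.24 under siRNA 1 and from -0.53 to -0.25 under siRNA 2. By this mean the siRNA 2 arrays lay below every Control array, though narrowly for Control 1, while the siRNAs overlapped. By the median deviation from the Control means, siRNA 2 and Control overlapped. It was -0.57 on siRNA 2 replicate 1 and -0.62 on Control 1. Of the mesoderm and primitive streak markers 5 of 7 were tested, all 5 lower under siRNA 2 with a median of -1.0, and for siRNA 1 the median was -0.48 with 4 of 5 lower. Their mean log2 signal ranged from -0.74 to 0.01 in Control and from -1.34 to -0.57 under siRNA 1 and was -1.35 and -1.33 under siRNA 2. The 10 pluripotency markers had medians of 0.28 with siRNA 2, with 8 of 10 higher, and 0.42 with siRNA 1, with 10 of 10 higher. Of these markers 0 passed the threshold. The part that any of these cell types has in the differences of the lipoprotein genes was not tested.

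**Figure D4:**
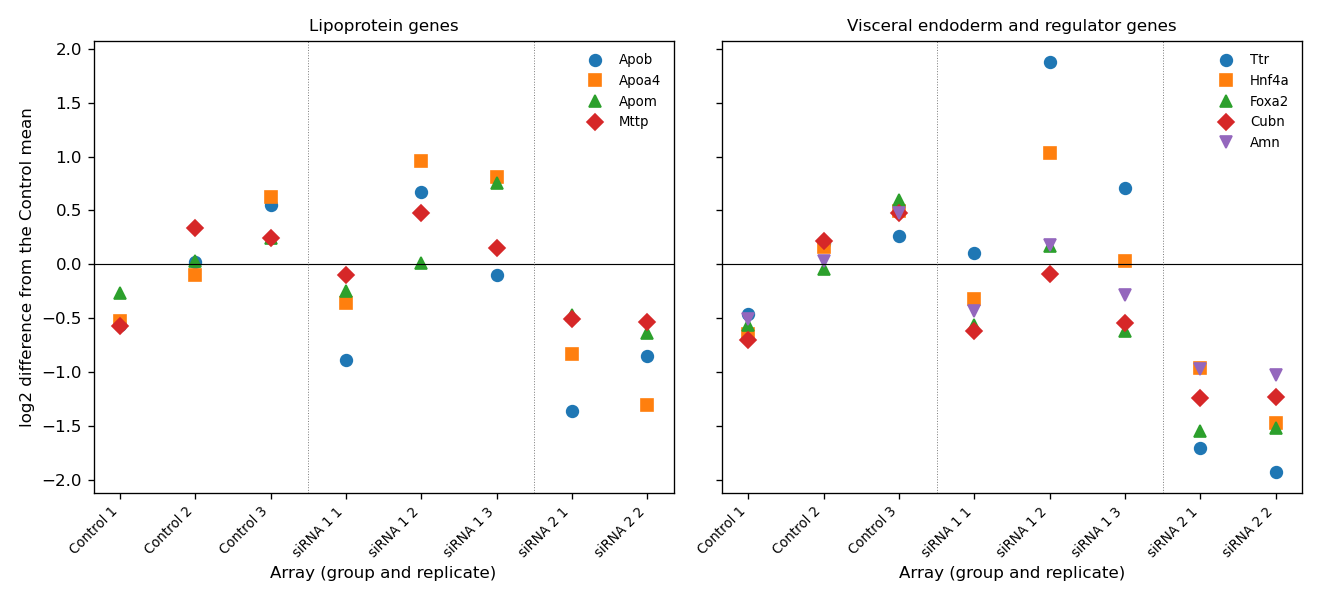
Log2 difference of every array from the mean of the Control arrays for Apob, Apoa4, Apom and Mttp (left) and for Ttr, Hnf4a, Foxa2, Cubn and Amn (right), with vertical dotted lines between groups. In both panels the siRNA 2 arrays lie below 0 for every gene, and Control 1 also lies below 0, by up to 0.70.

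Markers of other cells that could carry these transcripts were also read. Of the hepatocyte markers 6 of 7 had a probe and 3 were tested. The tested genes Cps1, Tat and Hpx were well above background on 8 of 8 arrays, Alb and Cyp3a11 on 2 each and Fgb on 3. The median difference of the tested genes for siRNA 2 was -0.03. The mean log2 signal of the tested hepatocyte markers lay between -4.71 and -4.08 in Control, between -4.41 and -3.95 under siRNA 1 and at -4.03 and -4.69 under siRNA 2. Cdh17, a cadherin of intestinal epithelium, was well above background on 0 arrays. The 4 tested intestinal markers, Vil1, Cdx2, Fabp2 and Lgals4, were well above it on 8 of 8 arrays and had a median of -0.17. Fibroblast markers had a median of 0.04 over 6 tested genes. Macrophage markers, a possible source of Apoe and Apoc1, had a median of -0.33 over 5 tested genes, with 4 of 5 lower under siRNA 2, and their mean log2 signal overlapped between groups, from -3.67 to -2.89 in Control and at -3.51 and -3.90 under siRNA 2.

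The genes whose signal across the 8 arrays was most like that of a member were sought among 2081 named genes with an SD over arrays of at least 0.3 that were well above background on every array. For Apob they were St3gal1, a sialyltransferase, with r = 0.975, Pga5 with r = 0.968 and Clic6 with r = 0.95, and St3gal1 still had r = 0.96 after the mean of each slide was removed. For Mttp they were Olfr805 (r = 0.962), Ncald (r = 0.961) and Trpm6 (r = 0.957), and for Apom they were Gm15760 (r = 0.943), Krtap4-7 (r = 0.939) and Krt14 (r = 0.929). Apoa2, which followed the slides, was closest to Gast and 1700011L22Rik (r = 0.985 each) and Elavl4 (r = 0.984). Apoc1 was closest to Gfra3 (r = 0.92), Nlrp4f (r = 0.919) and Pcp4 (r = 0.918), and Apoe to Krt19 (r = 0.91), Sphkap (r = 0.906) and Zfp28 (r = 0.885). These are descriptions over 8 arrays that share slides, groups and scaling, each the highest of many values, and no gene of one member's group of 3 recurs in another's.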

How the data were processed

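RNA of R1 mouse embryonic stem cells in embryoid bodies was read on 8 Agilent 1-colour arrays. Per the file headers, the authors extracted the deposited intensity values with Agilent Feature Extraction 10.7.3.1, and the processed intensity was already background-corrected. The deposited value table held log2 values scaled to the 75th percentile of the array, from which the median of a probe over arrays had been taken, as found by setting it against the scanner files. Column medians lay between -0.04 and 0.02, and its Control 2 and Control 3 columns followed each other's scanner file (r = 1, against -0.05 with their own). It was used as an alternative. RMA is named, without a role, in the submitters' processing notes.

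Here log2 processed intensity minus the array's 75th percentile was used, without control and outlier spots, spots of 1 probe being averaged. Of 39429 probes 26424 matched a symbol by accession in RefSeq and gene tables and 13005 did not. The probe with the highest mean stood for a gene, and a gene was tested if all arrays of 1 or more groups measured it well above background (22423 genes, 15566 with a symbol, and 27393 probes). One fit over the 3 groups was made in limma 3.58.1 (R 4.3.3) with 5 residual and 2.09 prior degrees of freedom and Benjamini-Hochberg adjustment. The code was checked on simulated data. The number of arrays limits the precision.

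The members and the gene lists were chosen with earlier results of these data known. From each related list the 3 genes with the smallest p for siRNA 2 against Control were named. The markers Afp, Ttr, Trf and Rbp4 were named after their values were seen, and the slide term was added then. Same-numbered arrays did not all pair, the correlations of their deviations ranging from -0.04 to 0.70. With Control 2 and Control 3 exchanged, as the value table names them, the numbers equal the slides, and Control 3 correlated at 0.56 and 0.55 with the siRNA arrays of its slide and Control 2 at 0.04 with its own. Alternatives were other scalings, backgrounds, filters, probe rules and blocks, array weights, and leaving out arrays.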

Additional observations from a re-analysis of the deposited data

How the results depend on the processing

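Under every alternative run, 0 members passed the threshold in limma in any of the 4 comparisons, and the smallest adjusted p of a member was 0.192, for Apoc1 with both siRNAs under array weights. For siRNA 2 against Control the median of the members ranged from -0.77 to -0.24, Apob from -1.48 to -0.67, Apoa4 from -1.57 to -0.22, Apom from -0.77 to -0.33, Mttp from -0.83 to -0.29 and Apoc1 from 0.11 to 0.24. For siRNA 2 against siRNA 1 the median ranged from -0.85 to -0.40, for siRNA 1 from 0.04 to 0.30, and for both siRNAs from -0.32 to 0.01, the last without Control replicate 3, where 3 rather than 5 members were lower. Under siRNA 1 the number of lower members was between 0 and 3.

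The sign turned for 27 of 1207 gene values. For both siRNAs, Apoa2 was 0.18 as the mean of its probes, 0.01 with the replicate block, 0.04 with slide as a block and from -0.20 to 0.11 with an array left out. For siRNA 1, Apob was 0.02 as the mean of its probes and from -0.49 to 0.28 with an array left out, and its second probe was -0.14 under array weights and from -0.16 to 0.48. For siRNA 2, Apoe was -0.03 with the replicate block, -0.01 with slide as a block, -0.08 without the arrays of slide 1 and from -0.03 to 0.08 with an array left out. Without the arrays of slide 1, Apoe was -0.02 for both siRNAs and Ppp3cb 0.05 for siRNA 2. With an array left out, siRNA 1 gave -0.05 to 0.30 for Apoa2, -0.11 to 0.34 for Mttp and -0.12 to 0.38 for Apom, both siRNAs gave -0.57 to 0.01 for Apoa4, and siRNA 2 gave -1.69 to 0.43 for Apoa5 and -1.56 to 0.09 for Gpihbp1. The cause was not tested.

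The replicate numbers as labelled do not pair all arrays, and the replicate block changed no call. With it siRNA 2 differed from Control by -0.97 for Apob and 0.15 for Apoc1. Exchanging Control 2 and Control 3, as the deposited value table names them, makes the block the same as the slide block, which gave -1.10 and 0.16. Without 1 siRNA 2 array, or without slide 1, the lone array of that group is assumed to vary like the others. Apoa1, Apoa4, Apoc3 and the second Apoa2 probe lay near background, which limits what they can show.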
